A study of Mus musculus with 6 samples.

Results

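Small nucleolar RNAs (snoRNAs) guide the chemical modification of ribosomal and other RNAs, and in mammals most are cut out of the introns of longer host transcripts. The genes described here are 10 long transcripts that host snoRNAs or a related small RNA, namely Gas5, Snhg1, Snhg3, Snhg5, Snhg6, Snhg8, Snhg11, Snhg12, Snhg14 and Snhg20. They were taken by symbol from the 55450 genes of GENCODE M21 that the count tables list. No cut on their counts was used, but the choice was made with earlier results of these data known. Each symbol matched 1 gene, and all 10 passed the filter on low counts, among 21237 genes tested. Long RNA of more than 200 bp from total mouse brain was sequenced in 3 libraries from TRMT1L knockout animals (KO) and 3 from wild-type animals (WT), labelled as biological triplicates. TRMT1L is a protein related to the tRNA-methylating enzyme TRMT1, and the comparison asks how its loss changes brain RNA. The sources used here give no strain, sex, age or design of the knockout allele.

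Host transcripts of this kind fall into classes that differ in how they are made and destroyed. Gas5 and Snhg1 are spliced RNAs with no long open reading frame; ribosomes load on them, and they are destroyed by nonsense-mediated decay, the pathway that removes RNAs whose reading frame ends early, so that they build up when translation is blocked. Gas5 also belongs to the class of RNAs that start with a terminal oligopyrimidine tract (TOP), shared with ribosomal protein mRNAs. Snhg11 and Snhg14 are expressed mainly in neurons. Snhg14 is a very long imprinted transcript, read from the paternal chromosome, that carries the SNORD116 and SNORD115 arrays and runs into Ube3a on the opposite strand.

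Small RNAs inside these hosts are printed below. In the annotation used, Snord47, Snord80, Snord50a and Snora24 lie wholly within host exons. The 4 below with box C and box D, which guide 2'-O-methylation, come from Gas5 (Snord47 and Snord80), Snhg5 (Snord50a) and Snhg6 (Snord87), and capitals mark the first TGATGA (box C) and the last CTGA (box D). The 3 H/ACA RNAs, a class that mostly guides pseudouridylation, come from Snhg3 (Snora73b), Snhg8 (Snora24) and Snhg11 (Gm25129), and capitals mark the first ACA in the final 10 bases. All are GENCODE M21 sequences, 5′ to 3′, on assembly GRCm38.
Snord47 (chr1:161038082-161038158, plus strand): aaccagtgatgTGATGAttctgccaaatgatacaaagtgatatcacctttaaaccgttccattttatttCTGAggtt
Snord80 (chr1:161037601-161037681, plus strand): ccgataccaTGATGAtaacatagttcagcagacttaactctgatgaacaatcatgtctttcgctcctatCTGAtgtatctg
Snord50a (chr9:88521529-88521600, minus strand): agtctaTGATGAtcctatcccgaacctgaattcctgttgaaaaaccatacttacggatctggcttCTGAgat
Snord87 (chr1:9942463-9942549, minus strand): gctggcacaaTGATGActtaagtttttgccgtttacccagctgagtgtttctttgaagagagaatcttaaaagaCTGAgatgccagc
Snora73b (chr4:132352322-132352526, minus strand): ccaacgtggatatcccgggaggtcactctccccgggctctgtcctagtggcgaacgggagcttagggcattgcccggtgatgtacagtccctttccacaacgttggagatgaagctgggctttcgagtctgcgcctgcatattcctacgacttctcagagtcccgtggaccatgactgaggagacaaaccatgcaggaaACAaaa
Snora24 (chr3:123507937-123508066, minus strand): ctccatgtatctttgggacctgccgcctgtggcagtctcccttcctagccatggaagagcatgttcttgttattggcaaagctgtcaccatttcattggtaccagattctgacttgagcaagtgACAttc
Gm25129 (chr2:158379534-158379666, plus strand): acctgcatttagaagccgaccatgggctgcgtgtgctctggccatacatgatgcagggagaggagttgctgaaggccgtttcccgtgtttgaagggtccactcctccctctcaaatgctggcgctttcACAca

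The starts of the hosts were compared because a TOP tract begins with C at the first base. Windows from 15 bases before to 30 bases from the start are given from RefSeq on GRCm38.p6 for Gas5, Snhg1, Snhg8 and Snhg12 and, for comparison, the neuronal hosts Snhg11 and Snhg14. Capitals mark a C followed by at least 4 further C or T bases on the host's own strand, beginning within 5 bases of the annotated start. In all, 9 of the 10 hosts matched an entry, Gas5 with 2 starts, and Snhg6 did not. Such a run was found in 4 of the 10 entries of these hosts (Gas5 at 1 of its starts, Snhg3, Snhg8 and Snhg12) and in 16.1% of 32851 entries of 300 bases over all genes. The run of Snhg8 begins at the annotated start itself. The RefSeq start of Snhg14 lies outside the shorter GENCODE model on which its reads were counted. Annotated starts were used as given, and a match describes letters, not use of the tract.
Gas5, first start (chr1:161034586-161034630, plus strand): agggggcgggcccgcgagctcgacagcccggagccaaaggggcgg
Gas5, other start (chr1:161035151-161035195, plus strand): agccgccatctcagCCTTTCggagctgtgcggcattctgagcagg
Snhg1 (chr19:8723472-8723516, plus strand): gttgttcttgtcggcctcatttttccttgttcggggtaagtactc
Snhg8 (chr3:123508307-123508351, minus strand): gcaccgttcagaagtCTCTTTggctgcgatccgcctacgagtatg
Snhg12 (chr4:132308663-132308707, plus strand): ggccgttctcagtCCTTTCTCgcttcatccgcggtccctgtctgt
Snhg11 (chr2:158375698-158375742, plus strand): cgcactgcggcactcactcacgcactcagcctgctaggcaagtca
Snhg14 (chr7:60450148-60450192, minus strand): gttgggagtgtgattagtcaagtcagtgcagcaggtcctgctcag

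Depth was even across the study, with counts in genes from 31201119 to 36145961 per library on the strand used. For the targeted gene Trmt1l, the WT libraries held from 1034 to 1279 counts and the KO libraries from 93 to 106, so each KO library was low in it. Markers of neurons, astrocytes, oligodendrocytes, microglia, endothelium, blood and choroid plexus were all detected, as a whole brain holds. The 4 choroid plexus markers had summed CPM from 284 to 339 in WT and from 342 to 410 in KO, without overlap, and the 4 blood markers from 105 to 143 in WT and from 94.5 to 238 in KO. All 8 had log2 fold changes above 0, with medians of 0.18 and 0.46, and 0 passed over all genes. Their part in the host values was not tested. No 2 libraries of a group agreed within sampling noise, since chi-square over its degrees of freedom, across genes, ranged from 4.08 to 8.69. The labels do not say how the animals were bred or whether they share litters, so the p-values measure the spread between these libraries.

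The 10 hosts covered a 132-fold range of abundance per length. Levels are given as CPM, counts scaled to a common library size after TMM adjustment, divided by the length in kb of all annotated exons of the gene. Snhg11 was the highest at 200.1 on this scale averaged over the 6 libraries (190.0 to 207), followed by Snhg14 at 26.9 (25.6 to 28.9). Gas5 followed at 9.85 (6.56 to 12.6), then Snhg8 at 7.62 (5.20 to 10.3) and Snhg6 at 5.13 (4.78 to 5.85). The remaining hosts were Snhg5 at 3.25, Snhg12 at 3.03, Snhg20 at 2.55, Snhg3 at 2.20 and Snhg1 at 1.52.

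Of the 9 neighbouring pairs in this order, 4 had separate ranges over the 6 libraries: Snhg11 above Snhg14, Snhg14 above Gas5, Snhg6 above Snhg5 and Snhg3 above Snhg1. The other 5 pairs overlapped in range. Within libraries, Snhg8 was above Snhg6 and Snhg12 above Snhg20 in 6 of 6, Snhg5 above Snhg12 and Snhg20 above Snhg3 in 5 of 6, and Gas5 above Snhg8 in 4 of 6. The neuronal hosts Snhg11 and Snhg14 made up between 96.4% and 97.5% of the summed CPM of the 10 genes. By mean CPM Snhg11 ranked 23 and Snhg14 104 among all genes tested, while Gas5 ranked 5821 and Snhg3 15094. For Snhg1, Snhg8 and Snhg12 the exons of all annotated transcripts together cover 100% of the gene, so their level per kb is divided by intron length too. They cover 94.8% of Snhg20, 92.0% of Snhg5, 91.3% of Gas5 and 81.1% of Snhg11, and 53.1% of Snhg6 and 17.4% of Snhg3, so the order per kb depends on the models annotated. For Snhg14 the exons cover 3.91% of the gene.

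**Figure D1:**
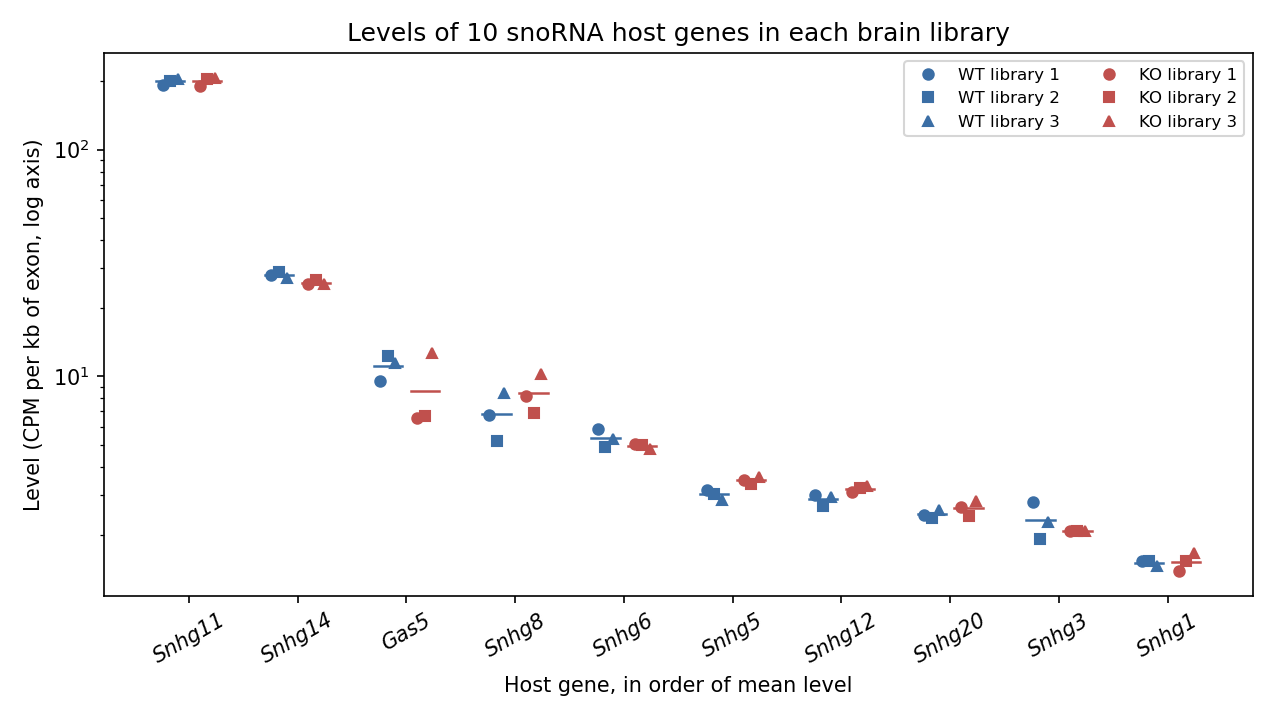
Level of each host gene in CPM per kb of annotated exon (log axis) in the 3 WT (blue) and 3 KO (red) libraries, with short lines at the group means and 1 symbol shape per library number. Snhg11 lies near 200.1 and Snhg14 near 26.9, and Gas5 is the host whose KO libraries lie farthest apart.

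None of the 10 hosts passed the threshold between KO and WT. With edgeR's quasi-likelihood test and Benjamini-Hochberg adjustment over all genes, 0 of 10 had an adjusted p-value under 0.05, beside 0.00942% of all genes tested, and it was also 0 with limma-voom. The DESeq2 Wald test gave an adjusted p-value for 2 of 10 hosts, Snhg11 and Snhg14, neither under 0.05, and none for the other 8, Gas5 included. At an unadjusted p-value under 0.05 the count was 1 of 10, Snhg14, which was lower in KO, beside 3.38% of all genes called lower and 7.92% called in either direction. Log2 fold changes (KO over WT) were above 0 for 6 of 10 hosts, beside 50.1% of all genes. Their median was 0.01, beside 0.00013 for all genes. The groups did not overlap for 3 of 10 hosts, Snhg5 and Snhg12 above and Snhg14 below WT, beside 14.4% of all genes.

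**Figure D2:**
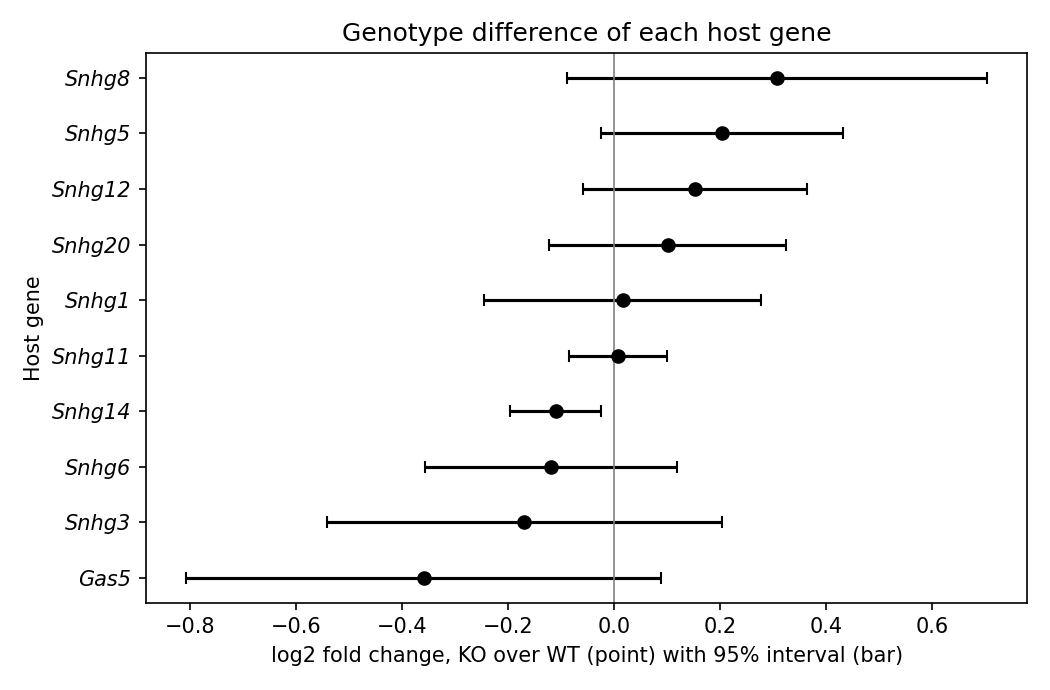
Log2 fold change of each host gene, KO over WT (points), with its 95% interval from edgeR's quasi-likelihood fit (bars), ordered from the lowest, Gas5 at -0.36, to the highest, Snhg8 at 0.31. The interval of Snhg14 alone stays on 1 side of 0, and those of Gas5 and Snhg8 are the widest.

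Gas5 (growth arrest specific 5, ENSMUSG00000053332.13, chromosome 1 from 161034422 to 161038539, plus strand) gave the lowest KO to WT ratio and the largest spread within the KO group. WT libraries 1 to 3 held 1305, 1449 and 1414 Gas5 counts, and KO libraries 1 to 3 held 857, 843 and 1718. In CPM these were 35.9, 46.2 and 43.0 in WT and 24.7, 25.0 and 47.5 in KO. KO libraries 1 and 2 thus lay below every WT library, at 59.2% and 60.1% of the WT mean, and KO library 3 lay above every WT library, at 114%. The group mean with its SD (n = 3) was 41.7 ± 5.30 CPM for WT and 32.4 ± 13.1 CPM for KO.

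The log2 fold change of Gas5 was -0.36 (SE 0.205, 95% interval -0.81 to 0.09; edgeR adjusted p = 0.693), and the exact permutation test of log2 CPM gave p = 0.4, where the smallest p for 3 against 3 libraries is 0.1. The value turned on KO library 3: without it the log2 fold change was -0.74 and the edgeR adjusted p-value 0.0348. Without the filter on low counts, which raised the number of genes called from 2 to 298, Gas5 was also called (log2 fold change -0.35, edgeR adjusted p = 8.22e-05). With KO library 1 or 2 left out instead, the log2 fold change was -0.20. The coefficient of variation (SD over mean) of Gas5 was 40.4% among KO libraries and 12.7% among WT libraries. Among the 10646 genes with a mean of at least 10 CPM, 30 (0.282%) had a larger coefficient of variation among the KO libraries than Gas5, and the median gene had 4.76%.

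The genes nearest to Gas5 in profile over the 6 libraries shared only part of its pattern. Likeness was measured as the root-mean-square difference of centred log2 CPM, over 10643 genes with a mean of at least 10 CPM that are not hosts of the list. The closest were Zc3hav1 (0.189), an antiviral zinc finger protein, Eif2ak2 (0.201), the double-stranded RNA-activated eIF2 kinase PKR, and Ifih1 (0.203), the RNA sensor MDA5, where a flat profile would be 0.392 from Gas5. Zc3hav1 lies on chromosome 6, Eif2ak2 on chromosome 17 and Ifih1 on chromosome 2, away from Gas5. Zc3hav1 measured 14.7, 18.9 and 15.3 CPM in WT and 13.4, 11.9 and 20.1 CPM in KO libraries 1 to 3. Eif2ak2 measured 12.6, 18.4 and 16.2 CPM in WT and 13.4, 10.5 and 18.1 CPM in KO.

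Both genes were lowest in KO library 2 and highest in WT library 2 and KO library 3, but in contrast to Gas5 their KO library 1 was close to WT library 1. The 5 microglial markers (Cx3cr1, C1qa, C1qb, Csf1r and P2ry12), none of them at 0, had summed CPM of 164, 203 and 180 in WT and 161, 158 and 195 in KO, with WT library 2 and KO library 3 again highest and KO libraries 1 and 2 lowest. P2ry12 did not follow this order: it had 26.2, 27.0 and 27.4 CPM in WT and 22.8, 19.0 and 21.9 CPM in KO, with every KO library below WT (log2 fold change -0.34; edgeR adjusted p = 0.550). Of these markers 2 of 5 had a log2 fold change above 0. Their part in the Gas5 values was not tested.

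**Figure D3:**
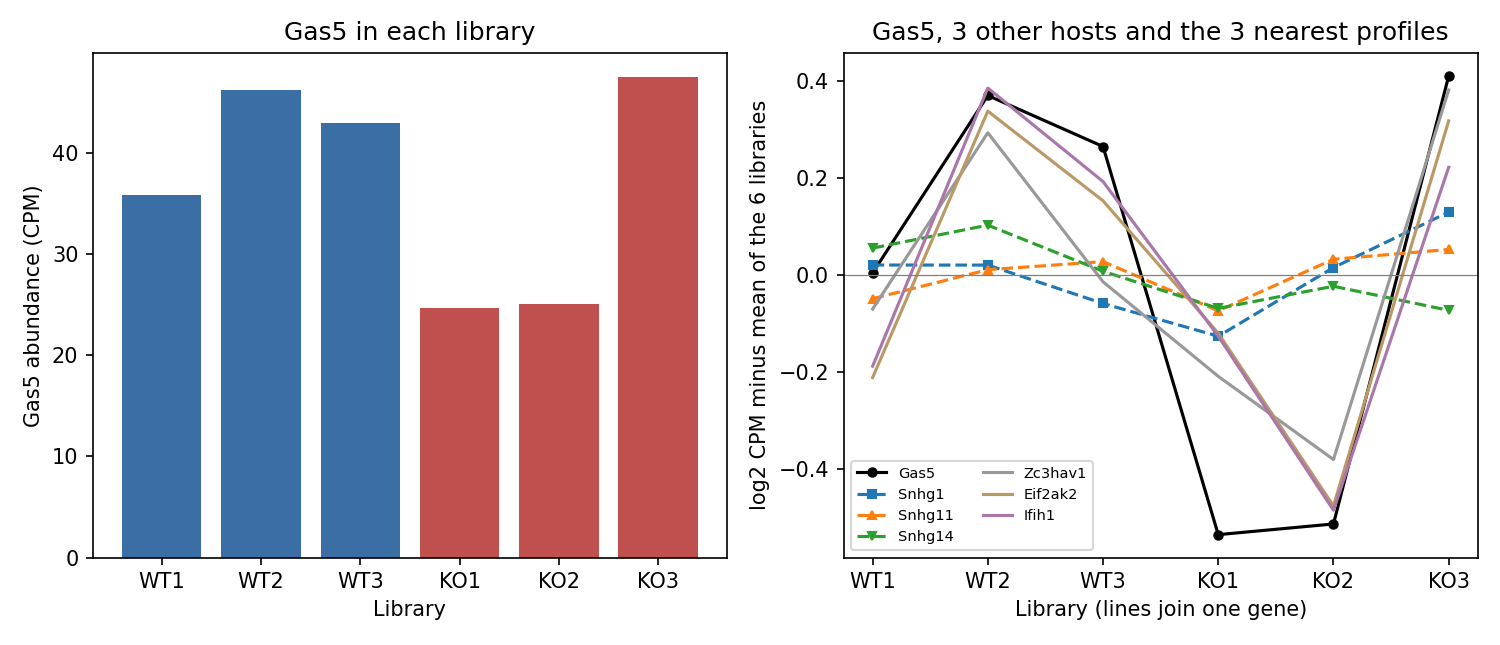
Left, Gas5 abundance (CPM) as 1 bar per library, WT blue and KO red; right, log2 CPM minus the mean of the 6 libraries for Gas5, Snhg1, Snhg11, Snhg14 and the 3 genes with the closest profiles, with lines joining the values of 1 gene. Gas5 is at 24.7 and 25.0 CPM in KO libraries 1 and 2 and at 47.5 CPM in KO library 3. The lines of Snhg1, Snhg11 and Snhg14 lie closer to 0 than that of Gas5 in every library except WT library 1.

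Gas5 lies 9.58 Mb from Trmt1l on the same chromosome. Its 13 neighbours within 1 Mb with a mean of at least 10 CPM, a set added after the Gas5 values were seen, had log2 fold changes between -0.13 and 0.17, of which 7 were above 0. Zbtb37, whose gene overlaps the first bases of Gas5 on the opposite strand without sharing an exon, had 65.3, 65.5 and 71.0 CPM in KO libraries 1 to 3 and 71.3, 69.9 and 74.9 CPM in WT. Opposite-strand counts over Gas5 were between 3 and 7 per library, or 0.407% of its counts on both strands.

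Snhg1 (ENSMUSG00000108414.1, chromosome 19 from 8723475 to 8726443, plus strand), the other host known to be sensitive to translation, differed less between libraries than Gas5. WT libraries 1 to 3 held 166, 143 and 142 of its counts, and KO libraries 1 to 3 held 143, 153 and 178. In CPM the WT values of 4.56, 4.56 and 4.32 lay within the KO values of 4.12, 4.55 and 4.92. As for Gas5, KO library 1 lay below and KO library 3 above every WT library, but KO library 2 lay within the WT range. The log2 fold change was 0.02 (SE 0.119, 95% interval -0.24 to 0.28; edgeR adjusted p = 0.986). Its direction is not set, since it changed sign when WT library 3 (-0.01) or KO library 3 (-0.05) was left out.

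Snhg11 (ENSMUSG00000044349.15, chromosome 2 from 158375638 to 158386145, plus strand), which GENCODE M21 lists as protein-coding although it is known as a noncoding neuronal RNA, varied least of the 10 hosts over the 6 libraries, with a coefficient of variation of 3.44%. It had 59953, 53833 and 57167 counts in WT and 56269, 58674 and 63891 in KO libraries 1 to 3. In CPM these were 1648, 1717 and 1737 in WT and 1619, 1743 and 1768 in KO, with overlapping groups. The highest library was 1.09 times the lowest. The log2 fold change was 0.01 (SE 0.0424, 95% interval -0.08 to 0.10; edgeR adjusted p = 0.979), and its sign turned to -0.0023 when libraries were scaled by total counts. The sign also turned without WT library 1 (-0.014), KO library 2 (-0.0064) or KO library 3 (-0.016), and it stayed positive with any other library left out. The genes closest to it in profile were Ctnnal1 (0.0130), Pik3c3 (0.0146) and Asb7 (0.0149), where a flat profile would be 0.0457 away.

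Snhg14 (ENSMUSG00000100826.6, chromosome 7 from 59307924 to 59975759, minus strand) had 729, 754 and 706 CPM in WT and 669, 691 and 667 CPM in KO libraries 1 to 3. Every KO library lay below every WT library, a separation found downward for 6.97% of all genes. The group mean with its SD (n = 3) was 729 ± 24.0 CPM for WT and 676 ± 12.97 CPM for KO, which is 92.6% of WT. Its log2 fold change was -0.11 (SE 0.0395, 95% interval -0.20 to -0.02; edgeR unadjusted p = 0.0167, adjusted p = 0.579), and it did not pass over all genes. With 1 library left out at a time it ranged from -0.13 to -0.09, and it no longer passed the unadjusted threshold without WT library 2 (edgeR adjusted p = 0.861) or KO library 3 (edgeR adjusted p = 0.627). In bulk brain, fewer cells of a type and less RNA per cell cannot be told apart.

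Neuron markers were set beside the neuronal hosts. The 10 markers Snap25, Syt1, Rbfox3, Eno2, Stmn2, Map2, Tubb3, Slc17a7, Gad1 and Gad2 had summed CPM from 6798 to 7072 in WT and from 6621 to 7007 in KO, with none at 0. Log2 fold changes were above 0 for 4 of 10, with a median of -0.01. Over all genes 0 passed in either direction, and 1 was higher and 0 lower without adjustment, beside 4.54% and 3.38% of all genes. The groups did not overlap for 3 above and 2 below WT, beside 7.46% and 6.97% of all genes. Snap25, of the vesicle fusion machinery, was at -0.09 (edgeR adjusted p = 0.628) and Eno2, the neuronal enolase, at 0.09 (edgeR adjusted p = 0.611). Oligodendrocyte markers had log2 fold changes below 0 for all 5 (median -0.10), with summed CPM from 3891 to 4291 in WT and from 3296 to 3989 in KO. Their part in the Snhg14 values was not tested.

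Leaving snoRNAs aside, the 3 features tested that overlap Snhg14 on its own strand had log2 fold changes below 0, and 0 of 3 passed over all genes. Gm38393, a protein-coding model that shares 27 exon bases with Snhg14, had 86.9, 89.1 and 83.7 CPM in WT and 79.4, 75.9 and 74.7 CPM in KO (log2 fold change -0.17, SE 0.0487; edgeR adjusted p = 0.576). A230103L15Rik, a model inside a Snhg14 intron, had 61.7, 71.0 and 66.4 CPM in WT and 56.8, 59.7 and 57.0 CPM in KO (log2 fold change -0.20, SE 0.0588; edgeR adjusted p = 0.576). For both features, added after their values were seen, every KO library lay below every WT library, as for 6.97% of all genes. Gm44831, another intronic feature, was at -0.16 (SE 0.0756) with overlapping groups. Reads of such features cannot be separated from unspliced Snhg14. The share of mapped reads in no exon, which can include intron reads, was 50.3% to 52.2% in WT and 48.6% to 49.8% in KO. The share in several genes was 0.784% to 0.808% in WT and 0.863% to 0.909% in KO. Neither share overlapped between the groups. Their part in the values of Snhg14 and these features was not tested.

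Most of the snoRNAs inside Snhg14 that could be tested had log2 fold changes below 0. Of 208 annotated snoRNAs of 69 to 94 bases, 43 passed the filter, and of these 33 had a log2 fold change below 0 and 10 above, with a median of -0.13. At an unadjusted p-value under 0.05, 3 were lower and 0 higher, beside 3.38% and 4.54% of all genes, and 0 passed after adjustment. These RNAs are shorter than the 200 bp selected, and reads of unspliced Snhg14 over them cannot be told apart from their own, so their counts are not independent of the host. The most abundant, Gm24966, had 405, 355 and 355 counts in WT and 331, 318 and 413 in KO libraries 1 to 3, with overlapping groups.

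Of the imprinted genes around Snhg14, 5 of 7 listed were tested, and 0 passed over all genes in either direction. Ube3a, a ubiquitin ligase read on the opposite strand whose exons share 1803 bp with those of Snhg14, had 221, 219 and 234 CPM in WT and 217, 214 and 202 CPM in KO (log2 fold change -0.09, SE 0.0461; edgeR adjusted p = 0.655). Every KO library of Ube3a lay below every WT library, as for 6.97% of all genes. Snrpn, a splicing protein gene of the paternal chromosome, was at -0.09 and Magel2 at -0.10, both with overlapping groups, while Ndn was at 0.04 and Mkrn3 at 0.09. Opposite-strand counts over Snhg14 were 6.41% of its counts on both strands, from 1628 to 1784 in WT and from 1581 to 1644 in KO.

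**Figure D4:**
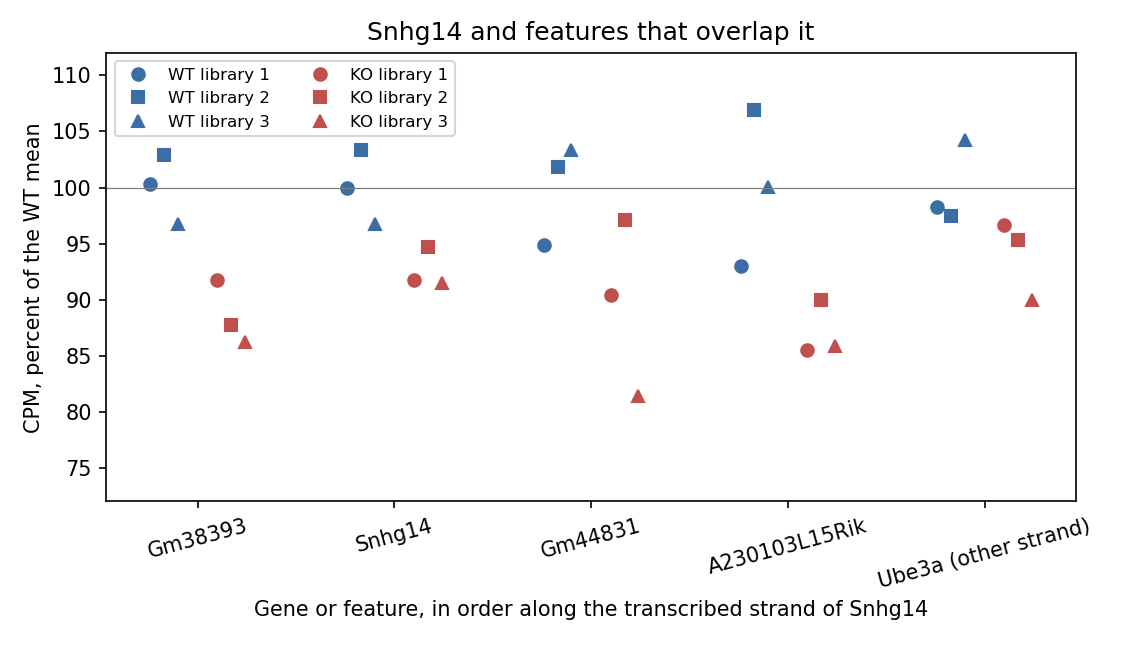
CPM as a percent of the WT mean for Gm38393, Snhg14, the intronic features Gm44831 and A230103L15Rik, and Ube3a on the opposite strand, with 1 point per library (WT blue, KO red). All 3 KO points lie below all WT points for Gm38393, Snhg14, A230103L15Rik and Ube3a, as for 6.97% of all genes, and the groups overlap for Gm44831.

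The contrast of translation-sensitive with neuronal hosts was taken in each library as the mean log2 CPM of Gas5 and Snhg1 minus that of Snhg11 and Snhg14. WT libraries 1 to 3 gave -6.41, -6.28 and -6.33, and KO libraries 1 to 3 gave -6.68, -6.67 and -6.14. KO libraries 1 and 2 lay below and KO library 3 above all WT libraries, the order seen for Gas5 alone. The mean with its SD (n = 3) was -6.34 ± 0.0649 for WT and -6.50 ± 0.310 for KO, a difference of -0.16 that is smaller than the spread between KO libraries. It was -0.33 without KO library 3, -0.06 without KO library 1 and -0.07 without KO library 2.

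Among the less abundant hosts, Snhg5 and Snhg12 separated the groups upward, as 7.46% of all genes did. Snhg5 (ENSMUSG00000097195.9, chromosome 9 from 88521050 to 88522929, minus strand), the host of Snord50a and Snord50b, had 5.44, 5.26 and 4.95 CPM in WT and 6.04, 5.79 and 6.20 CPM in KO. Its log2 fold change was 0.20 (SE 0.105; edgeR adjusted p = 0.655). Snhg12 (ENSMUSG00000086290.9, chromosome 4 from 132308623 to 132311024, plus strand), the host of Snora16a, Snora44, Snora61 and Snord99, had 7.17, 6.44 and 7.08 CPM in WT and 7.45, 7.72 and 7.86 CPM in KO. Its log2 fold change was 0.15 (SE 0.0967; edgeR adjusted p = 0.723). Snhg5 had 163 to 224 counts per library and Snhg12 had 202 to 284, and neither passed over all genes.

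Snhg8 (ENSMUSG00000104960.1, chromosome 3 from 123507552 to 123508404, minus strand), the host of Snora24, had the highest log2 fold change of the list, 0.31 (SE 0.181, 95% interval -0.09 to 0.70; edgeR adjusted p = 0.705). It measured 5.77, 4.43 and 7.23 CPM in WT and 6.96, 5.85 and 8.77 CPM in KO, so that the groups overlapped and both varied widely. The coefficient of variation was 24.1% in WT and 20.5% in KO. With 1 library left out at a time its log2 fold change ranged from 0.14 (without KO library 3) to 0.49 (without WT library 3).

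Snhg20 (ENSMUSG00000086859.4, chromosome 11 from 117076008 to 117078955, plus strand), which holds an annotated small Cajal body RNA in place of a snoRNA, had 6.87, 6.60 and 7.17 CPM in WT and 7.45, 6.77 and 7.91 CPM in KO (log2 fold change 0.10, SE 0.102; edgeR adjusted p = 0.827). Snhg6 (ENSMUSG00000098234.7, chromosome 1 from 9941959 to 9944118, minus strand), the host of Snord87, had 6.71, 5.61 and 6.05 CPM in WT and 5.76, 5.70 and 5.48 CPM in KO (log2 fold change -0.12, SE 0.109; edgeR adjusted p = 0.812). Both overlapped between the groups.

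Snhg3 (ENSMUSG00000085241.7, chromosome 4 from 132348014 to 132353686, minus strand), the host of the H/ACA RNAs Snora73a and Snora73b, shows how the counting sets what can be seen. It had 100, 59 and 74 counts in WT and 71, 69 and 74 in KO libraries 1 to 3, and its log2 fold change was -0.17 (SE 0.170; edgeR adjusted p = 0.827). In the column counted without regard to strand it had 0 counts in every library. Its exons share 135 bp with Rcc1 on the same strand and 705 bp with Gm17300 on the other, and reads in several genes are not counted. Rcc1, which encodes a chromatin-bound exchange factor for the GTPase Ran, had 286, 228 and 238 counts in WT and 275, 271 and 282 in KO.

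Small RNAs inside the hosts could be read for few of them. Of the 240 annotated within the 10 hosts on the same strand, 29 lie wholly inside an annotated host exon, and all 29 had 0 counts in every library, since reads there fall in several genes. For 6 hosts, Gas5, Snhg1, Snhg5, Snhg8, Snhg12 and Snhg20, this holds for every small RNA, so those RNAs were not measured. Snora73b, whose 205 bases printed above pass the size selection, had 440, 205 and 252 counts in WT and 400, 308 and 330 in KO (log2 fold change 0.17, SE 0.191; edgeR adjusted p = 0.845). Snora73a, which lies mostly in an exon of Snhg3, had 0 or 1 count. Gm25129 in Snhg11 had 227, 183 and 166 counts in WT and 186, 194 and 223 in KO (log2 fold change 0.01), and overlapped between the groups like its host.

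None of the other snoRNA hosts passed over all genes. Of 258 further protein-coding genes that hold a snoRNA on their own strand, 235 were tested, and 0 passed in either direction. Unadjusted, 20 were higher and 14 lower, beside 4.54% and 3.38% of all genes. The groups did not overlap for 22 above and 23 below WT, beside 7.46% and 6.97% of all genes. The median log2 fold change was -0.0013. The smallest p-values were those of Rpsa, a ribosomal protein (0.18, SE 0.0402; edgeR adjusted p = 0.550), Lrch2 (-0.21, SE 0.0516; edgeR adjusted p = 0.576) and Sf3b4, a splicing factor subunit (0.24, SE 0.0632; edgeR adjusted p = 0.576). Of 62 other hosts, 32 were tested, 0 passed, 2 were higher and 0 lower without adjustment, and the median was -0.02. Those with the smallest p-values were 2410006H16Rik at 0.34, Gm15832 at 0.38 and Gm49685 at -0.21.

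Genes for the proteins that bind and mature snoRNAs had log2 fold changes between -0.28 and 0.20. Of 17 genes tested for the snoRNP core and its assembly factors, 0 passed over all genes, and 1 was higher and 1 lower without adjustment, beside 4.54% and 3.38% of all genes, with a median of 0.04. Naf1, an H/ACA assembly factor, had 12.97, 14.7 and 13.6 CPM in WT and 12.3, 10.6 and 11.2 CPM in KO (log2 fold change -0.28, SE 0.0885; edgeR adjusted p = 0.576). Ruvbl2, an ATPase of the assembly complex, was at 0.19 and Znhit3, a C/D assembly factor, at 0.20, with edgeR adjusted p-values of 0.608 and 0.628.

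Genes of the pathways that act on Gas5 and Snhg1 were read from lists as well. Of 16 nonsense-mediated decay factors, 0 passed, 1 was higher without adjustment, beside 4.54% of all genes, and the median log2 fold change was 0.03. Upf1, the central helicase, had 78.1, 76.7 and 76.8 CPM in WT and 81.4, 94.2 and 86.5 CPM in KO (log2 fold change 0.18, SE 0.0568; edgeR adjusted p = 0.576), with no overlap between the groups. Smg9 was at 0.12 and Dhx34 at 0.15, both with overlapping groups. Of 18 translation factor and other TOP mRNAs, 0 passed, and 5 were higher and 0 lower without adjustment, beside 4.54% and 3.38% of all genes. The median was 0.06. They include Eef2 (0.15, SE 0.0398), the translocation factor, Rack1 (0.17, SE 0.0472), a ribosome scaffold, and Eef1d (0.22, SE 0.0625), all with an edgeR adjusted p of 0.576.

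Messages known to rise when nonsense-mediated decay or translation is impaired had log2 fold changes above 0 for 12 of 12 genes, beside 50.1% of all genes, with a median of 0.37. The list was chosen with results of these libraries known and is not independent evidence of its direction. Over all genes 0 of 12 passed, and 6 were higher and 0 lower without adjustment, beside 4.54% and 3.38% of all genes. Cdkn1a, a cell cycle inhibitor, had 7.97, 6.67 and 7.99 CPM in WT and 10.01, 20.7 and 14.3 CPM in KO (log2 fold change 0.99, SE 0.207; edgeR adjusted p = 0.550). Sesn2, a stress-induced regulator of mTORC1, was at 0.41 and Atf4, the transcription factor of the integrated stress response, at 0.23, with edgeR adjusted p-values of 0.550 and 0.576. In the list, 5 of 12 genes had every KO library above every WT library, these 3 among them, beside 7.46% of all genes.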

How the data were processed

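For each library the authors deposited read counts per gene, as STAR's gene counting writes them; STAR 2.7.0f and cutadapt 1.9.1 are named in the submitters' processing notes, and the genome build and annotation are not given in the sources used here. All gene identifiers, version numbers included, are in GENCODE M21 (GRCm38), which supplied names, exons and positions. The deposited counts are whole numbers, not normalized, and the column holding 94.6% to 94.8% of stranded counts was used. Reads in several genes on that strand or mapping to several places are not in it, and rows that name no gene were left out. Of these rows, reads in no annotated exon, which can include intron reads, alone made up 48.6% to 52.2% of mapped reads.

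Counts were fitted in R 4.3.3 with edgeR 4.0.16 (filterByExpr, TMM, quasi-likelihood test, genotype alone, all 6 libraries), with Benjamini-Hochberg adjustment over all 21237 genes tested. The standard error is the log2 fold change over the square root of F. Log2 CPM used a prior count of 2. Alternatives used DESeq2 1.42.0, limma 3.58.1, other scalings, filters and columns, a replicate block, and each library left out. Tested on simulated data, the fit recovered the fold changes put in, with a share of false calls above the nominal level. All 10 hosts are named; from each list, up to 3 genes with the smallest p-value, and for Gas5 and Snhg11 the 3 closest profiles. Further features at Snhg14 and Snhg3, the overlaps and neighbours of Gas5, and the microglial values were added after their values were seen. The members and lists were chosen with earlier results of these data known.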

Additional observations from a re-analysis of the deposited data

How the results depend on the processing

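The number of hosts past the adjusted threshold was 0 with the unstranded column, both other scalings, a stricter filter (mean count 50 or more), limma-voom and the replicate block. It was 0 with the DESeq2 Wald test too, where 8 of 10 hosts, Gas5 included, have no adjusted p-value and so could not be called. It was 1, Gas5, without a filter on low counts (edgeR adjusted p = 8.22e-05, in a fit whose prior degrees of freedom were infinite and which called 298 genes), and from 0 to 1 with 1 library left out, where the 1 is Gas5 without KO library 3. Over its alternatives the adjusted p-value of Gas5 ranged from 8.22e-05 to 0.880. The number with an unadjusted p-value under 0.05 was 3 without a filter and 3 with the replicate block (Gas5, Snhg8 and Snhg14 in each; the cause was not tested), and from 0 to 2 with 1 library left out: 0 without WT library 2, and 2 (Snhg8 and Snhg14 in each) without WT library 3 or KO library 2. The replicate block changed no adjusted call of a host; libraries sharing a number correlated in their deviations from the group means at 0.040, -0.031 and -0.058 across 21237 genes, so the numbers were not taken as pairs. Over all genes 2 passed in the fit reported, 22 with DESeq2, 4 with the block and 2 to 5 with 1 library left out. The sign of Snhg11 turned with total counts (-0.0023), and with 1 library left out its log2 fold change ran from -0.016 to 0.045 and that of Snhg1 from -0.049 to 0.079. The other 8 hosts kept their direction in every alternative run, but not their size: the log2 fold change of Snhg3 was -0.014 without WT library 1 and -0.29 without WT library 2, that of Snhg6 -0.046 without WT library 1, and that of Snhg20 0.048 without KO library 3 and 0.16 without KO library 2. Snhg3 had no value in the unstranded column. The contrast of translation-sensitive with neuronal hosts ranged from -0.33 to -0.06 over libraries left out. In every library 7 hosts had fewer than 350 counts; how far depth sets their error was not tested.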
